A study of Drosophila melanogaster with 6 samples.

Results

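The citric acid cycle oxidises acetyl-CoA in mitochondria and passes its electrons to the respiratory chain. Pyruvate enters through pyruvate dehydrogenase, which makes acetyl-CoA, or through pyruvate carboxylase, which makes oxaloacetate and so refills the cycle. Carbon leaves again as citrate for lipid synthesis or, through phosphoenolpyruvate carboxykinase, toward sugar. In insects the fat body does the work of liver and adipose tissue, and adipokinetic hormone (AKH), a glucagon-like peptide made by the corpora cardiaca, acts on it to release stored fuel.

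The genes described here encode the enzymes of that cycle with its entry and exit steps. They were chosen by 31 FlyBase symbols, of which 29 were matched to identifiers among the 15796 genes of the count table, CG6255 under its later symbol Scsalpha2. The other 2, Fum1 (fumarase) and CG5261 (the acetyltransferase core of pyruvate dehydrogenase), were not analysed here. RNA came from fat bodies of Drosophila melanogaster larvae late in the third instar, all labelled as strain w1118. Control larvae carried the fat body driver R4-Gal4 over a wild-type chromosome (R4-Gal4/+), and AKH overexpression larvae carried the driver together with the transgene (UAS-AKH/+; R4-Gal4/+), with 3 libraries in each group. The controls carried no UAS transgene, so the presence of that transgene and the production of AKH cannot be told apart. The labels do not say how many larvae went into a library or whether a group's libraries were pooled separately, and p-values then rest on a spread that may be partly technical.

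Library totals were 29803513 to 33150911 counts. Levels are given as CPM, counts per 1000000 on TMM-scaled library sizes, as mean ± SD with n = 3 in each group, and a negative log2 fold change means a lower level with AKH overexpression. A gene is said to have fallen or risen where its p from edgeR's quasi-likelihood test, adjusted by Benjamini and Hochberg's method across the 10705 genes tested, was under 0.05. Akh itself was at 1.82 to 2.45 CPM in the controls and at 1635 to 2088 CPM with AKH overexpression. The AKH receptor gene AkhR was at 126 to 173 CPM and fell to 37.2 to 41.1 CPM (log2 fold change -1.84, edgeR adjusted p = 0.0024). The fat body markers, 8 of 10 found, summed to 340138 to 480959 CPM and the 10 salivary gland markers to 21857 to 33661 CPM, with overlapping groups.

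Markers of some other tissues moved with the groups or split the libraries. The 24 midgut markers summed to 3587, 5353 and 1844 CPM in controls 1 to 3 and to 5.57, 901 and 18.3 CPM in AKH libraries 1 to 3, with gammaTry at 0 throughout; edgeR called 0 of the 21 tested, 6 had an unadjusted p under 0.05, and DESeq2 called 2. The muscle markers, 15 of 17 found, summed to 131 to 166 CPM in the controls and to 106 to 125 CPM with AKH overexpression, and Mlc1 and Mlc2 among them fell, while DESeq2 called 5. Of these 15 markers 14 were lower by log2 fold change (median -0.60). An unadjusted edgeR p under 0.05 was found in 10, beside 10% of all tested genes lower and 8.01% higher. In 11 every AKH library lay below every control, as in 13.5% of all tested genes. Of the 21 midgut markers tested, 20 were lower (median log2 fold change -3.34), and in 15 every AKH library lay below every control. The 26 male germline markers, tomb at 0, summed to 132, 94.0 and 134 CPM in control 2, AKH 1 and AKH 2 and to 17.7 to 23.8 CPM in the other 3 libraries. The part of midgut and muscle RNA in the results that follow was not tested, and in such bulk RNA fewer cells of a type and less RNA per cell cannot be told apart.

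With AKH overexpression 6 of the 28 tested genes fell and 0 rose. Those that fell were the pyruvate carboxylase gene PCB, the carboxykinase gene Pepck2, fructose-1,6-bisphosphatase (fbp), ScsbetaA and Scsalpha1 of succinyl-CoA synthetase, and SdhB of succinate dehydrogenase. The share of 21.4% stands beside 1.91% of all tested genes that fell and 1.87% that rose, 3.77% in all. Of the 28 genes 25 had a control mean of at least 20 CPM, and the shares of all tested genes were not matched for level. The pyruvate dehydrogenase genes measured, citrate synthase, aconitase and the NAD-dependent isocitrate dehydrogenase subunits were not called. At an unadjusted p under 0.05 edgeR had 12 lower and 1 higher, Mpc1, beside 10% of all tested genes lower and 8.01% higher. The log2 fold change was negative in 22 of the 28, with a median of -0.19, where the median of all tested genes was 0.02. The 29th gene, sea, had too few counts to be tested.

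The count of 6 moved with the libraries used. It was 3 without control 1, 3 without control 2, 4 without control 3, 1 without AKH 1, 1 without AKH 2 and 2 without AKH 3. In the same order, all genes called in either direction numbered 189, 272, 479, 144, 261 and 182, beside 404 with all 6 libraries. These fits tested 10840 to 11076 genes. In control 2, AKH 1 and AKH 2, the libraries with the higher male germline marker level, edgeR called 4 lower, beside 3.28% of all genes lower and 620 called in all. These were PCB, ScsbetaA, Pepck2 and Pepck1, the last not among the 6, while fbp, Scsalpha1 and SdhB were not called. In the other 3 libraries edgeR called 0 of the set and 2 of all genes, with 9 of the set lower and 0 higher at an unadjusted p under 0.05, beside 6.48% and 3.86% of all genes. In each of these fits 1 group had a lone library, which was assumed to vary like the libraries of the other group. DESeq2 called 10 lower and 0 higher, beside 5.09% and 3.40% of all genes it tested, and its additional 4 were CG1544, CG5214, SdhA and Pepck1. Limma-voom called the same 6 genes as edgeR, beside 1.69% of all genes called lower and 1.79% called higher.

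**Figure D1:**
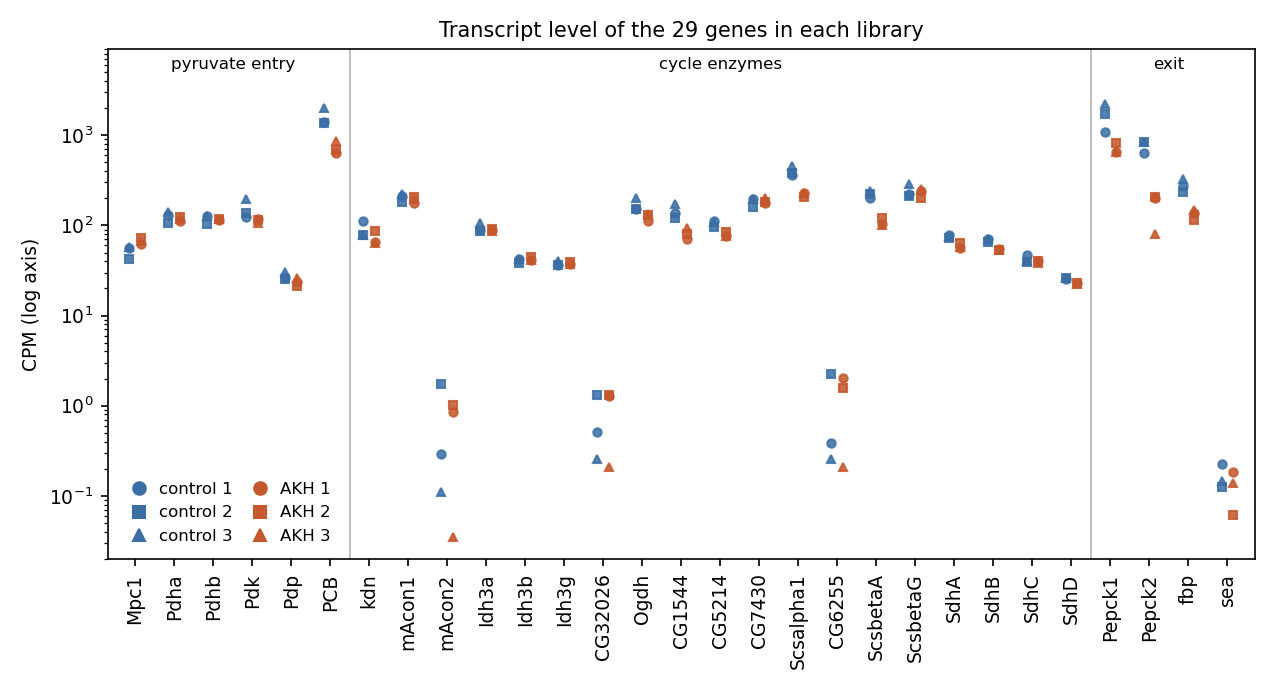
CPM of the 29 genes on a log axis, with each of the 6 libraries as a point (blue, control; orange, AKH overexpression; symbol, replicate), in the order pyruvate entry, cycle enzymes and exit. PCB, Pepck1 and Pepck2 stand highest in the controls, and mAcon2, CG32026, CG6255 and sea lie under 3 CPM.

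Pyruvate carboxylase makes oxaloacetate from pyruvate and bicarbonate. Its gene PCB (FBgn0027580) was at 1397, 1371 and 2028 CPM in controls 1 to 3 and at 633, 689 and 855 CPM in AKH libraries 1 to 3. Every AKH library lay below every control, and the gene fell 2.20-fold (log2 fold change -1.14, SE 0.20, edgeR adjusted p = 0.036). The log2 fold change was -1.02 within the 3 libraries of higher male germline level and -1.01 within the other 3. Among the 6 fits that left out a library the call held only without control 3, with adjusted p up to 0.160 in the others.

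The mitochondrial pyruvate carrier imports pyruvate for both entry enzymes. Mpc1, one of its subunits, was at 56.2, 42.7 and 58.2 CPM in the controls and at 62.3, 72.0 and 67.8 CPM with AKH overexpression. It was the only gene of the set in which every AKH library lay above every control, a pattern seen in 10.8% of all tested genes. It was not called (log2 fold change 0.36, 95% interval 0.04 to 0.69, edgeR adjusted p = 0.22).

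Pyruvate dehydrogenase oxidises pyruvate to acetyl-CoA. The groups overlapped in the subunits of its first enzyme, Pdha at 125 ± 17.9 CPM in the controls and 117 ± 6.18 CPM with AKH overexpression, and Pdhb at 119 ± 13.9 and 116 ± 1.24 CPM. The 95% intervals of their log2 fold changes were -0.39 to 0.20 for Pdha and -0.27 to 0.22 for Pdhb, so that changes as large as that of PCB lay outside them. CG7430, the dihydrolipoamide dehydrogenase that this complex shares with oxoglutarate dehydrogenase, was at 183 ± 19.5 and 187 ± 12.9 CPM (interval -0.23 to 0.29).

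The complex is switched off by the kinase Pdk and on by the phosphatase Pdp. Pdk was at 124, 136 and 198 CPM in the controls and 119, 115.4 and 107 CPM with AKH overexpression, lower in every AKH library but not called (log2 fold change -0.42, edgeR adjusted p = 0.30). Pdp was at 27.2 ± 2.62 and 23.8 ± 2.40 CPM and overlapped between groups (log2 fold change -0.19, interval -0.45 to 0.07).

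**Figure D2:**
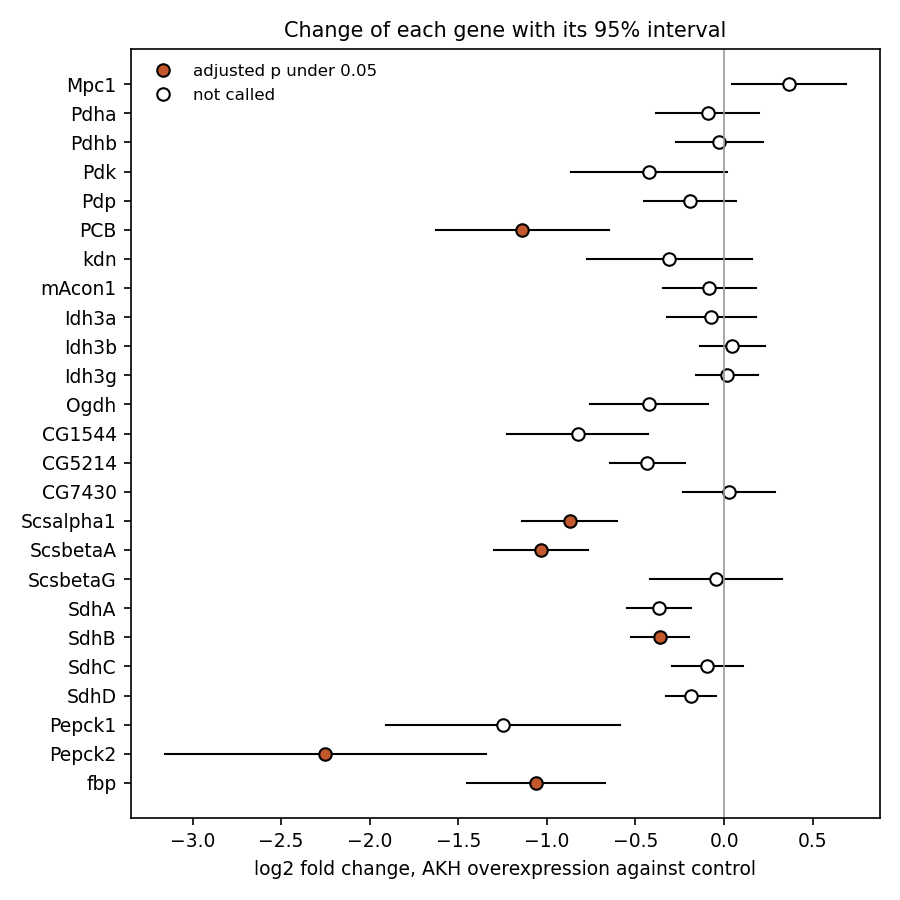
Log2 fold change of AKH overexpression against control for the 25 tested genes with a control mean of at least 20 CPM, with 95% intervals as lines; filled points had an edgeR adjusted p under 0.05. The 6 filled points all lie left of 0. The intervals of Pdha, Pdhb, Pdk, Pdp, kdn, mAcon1, Idh3a, Idh3b, Idh3g, CG7430, ScsbetaG and SdhC include 0.

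The first steps of the cycle had no call. Citrate synthase (kdn), which joins acetyl-CoA to oxaloacetate, was at 111, 79.2 and 77.3 CPM in the controls and 64.8, 87.6 and 64.0 CPM with AKH overexpression. Control 1 stood above the rest, the groups overlapped, and the interval of the log2 fold change ran from -0.77 to 0.16. The aconitase mAcon1, which turns citrate into isocitrate, was at 204 ± 21.3 and 192 ± 13.0 CPM (interval -0.34 to 0.18).

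The NAD-dependent isocitrate dehydrogenase, the first oxidative step, is built of alpha, beta and gamma subunits. Idh3a was at 93.9 ± 11.7 and 89.3 ± 3.09 CPM, Idh3b at 41.0 ± 2.61 and 42.3 ± 1.81 CPM and Idh3g at 37.5 ± 2.48 and 37.9 ± 1.08 CPM, all with overlapping groups. Their intervals were -0.32 to 0.18, -0.13 to 0.23 and -0.16 to 0.19. In the later annotation at hand Idh3g shares 6.65% of its exon bases with RpL27 on the opposite strand, and the sources used here do not state whether counting used strand.

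Oxoglutarate dehydrogenase makes succinyl-CoA. Its first enzyme Ogdh was at 153, 153 and 201 CPM in the controls and 113, 131 and 134 CPM with AKH overexpression. Its paralogue CG1544 was at 136, 122 and 173 CPM and then 70.3, 79.9 and 92.5 CPM. The succinyltransferase core CG5214 was at 112, 97.1 and 109 CPM and then 75.9, 84.0 and 75.7 CPM. In all 3 genes every AKH library lay below every control, as in 13.5% of all tested genes, and none passed the threshold. The log2 fold changes were -0.42 (edgeR adjusted p = 0.18) for Ogdh, -0.83 (adjusted p = 0.053) for CG1544 and -0.43 (adjusted p = 0.055) for CG5214. CG1544 and CG5214 lay close to the threshold. EdgeR called both with a stricter filter of at least 10 counts in every library (adjusted p = 0.039 and 0.046). It called CG1544 also with library totals (adjusted p = 0.014) or upper quartile scaling (adjusted p = 0.042). Neither gene was called in any of the 6 edgeR fits that left out a library (adjusted p up to 0.190 and 0.219).

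Succinyl-CoA synthetase is the step that makes a nucleoside triphosphate directly. An alpha subunit pairs with ScsbetaA in the ADP-using form or with ScsbetaG in the GDP-using form. ScsbetaA (FBgn0037643) was at 202, 223 and 244 CPM in the controls and 104, 120.04 and 102 CPM with AKH overexpression. It fell 2.05-fold (log2 fold change -1.03, SE 0.11, edgeR adjusted p = 0.0063), with no overlap between groups. It was the only gene of the set whose call held in all 6 fits that left out a library, with adjusted p up to 0.0478.

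The alpha subunit Scsalpha1 (FBgn0004888) was at 367, 385 and 454 CPM and then 226, 205 and 228 CPM. It fell 1.83-fold (log2 fold change -0.87, SE 0.11, edgeR adjusted p = 0.012), and its call was lost without any 1 of the AKH libraries (adjusted p up to 0.0667). ScsbetaG was at 223, 211 and 288 CPM in the controls and 242, 203 and 255 CPM with AKH overexpression. Its groups overlapped, and its interval of -0.42 to 0.33 did not reach the change of ScsbetaA. Within the 3 libraries of higher male germline level the log2 fold change was -0.96 for ScsbetaA and -0.81 for Scsalpha1, and within the other 3 it was -1.13 and -0.85.

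The beta subunits were also compared within each library. The log2 ratio of ScsbetaA to ScsbetaG was -0.14, 0.08 and -0.24 in the controls and -1.22, -0.75 and -1.32 with AKH overexpression. The groups did not overlap. The difference of -0.99 had p = 0.10 in an exact two-sided permutation test, the smallest that 3 against 3 libraries allow, or 0.25 adjusted over the 10 pairs compared.

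Levels of different genes were set side by side as RPKM, the authors' values per kilobase of gene and per 1000000 counts. ScsbetaA made up 45.0 ± 2.82% of the summed RPKM of the beta subunits in the controls and 29.2 ± 4.37% with AKH overexpression (n = 3 each). Scsalpha1 stood at 292 ± 13.6 RPKM in the controls beside 269 ± 8.99 RPKM for the betas together, a ratio of 1.08 ± 0.0267. With AKH overexpression it stood at 162 ± 2.77 beside 206 ± 1.76 RPKM, a ratio of 0.785 ± 0.00969. These sums and shares were chosen after the values were seen and carry no test.

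**Figure D3:**
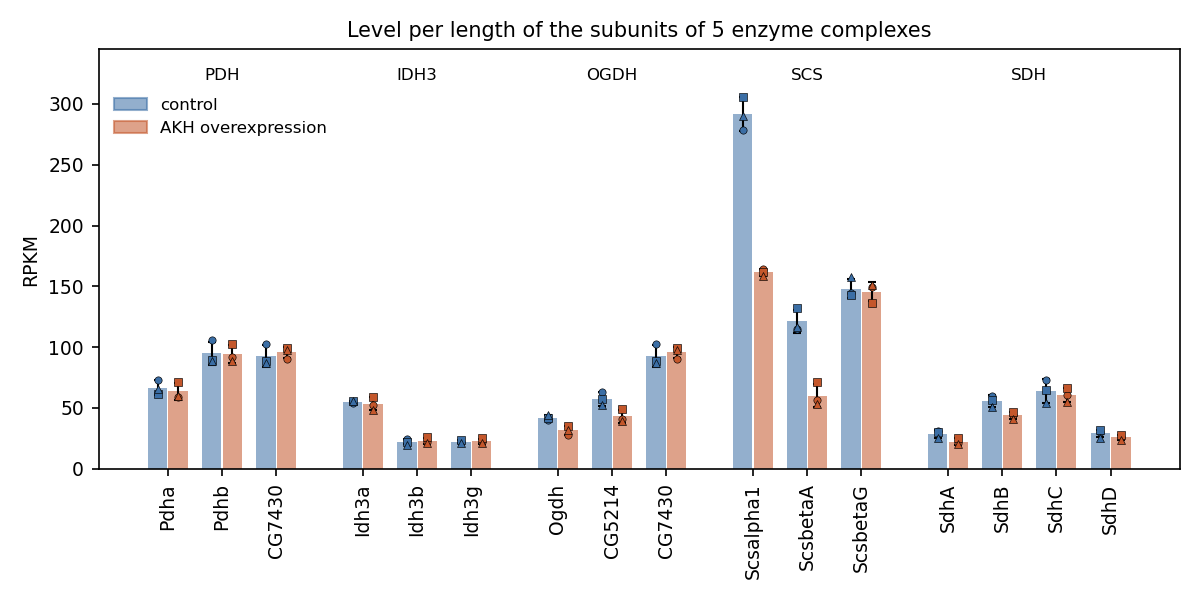
RPKM of the subunits of pyruvate dehydrogenase (PDH), NAD-dependent isocitrate dehydrogenase (IDH3), oxoglutarate dehydrogenase (OGDH), succinyl-CoA synthetase (SCS) and succinate dehydrogenase (SDH), as bars of the group mean with SD over 3 libraries and a point per library; CG7430 belongs to PDH and OGDH and is drawn in both. Scsalpha1 and ScsbetaA are lower with AKH overexpression, whereas ScsbetaG stands at 148 and 146 RPKM.

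Succinate dehydrogenase is the cycle enzyme that is also complex II of the respiratory chain. SdhB, its iron-sulphur subunit (FBgn0014028), was at 71.4, 64.8 and 71.3 CPM in the controls and 54.9, 53.6 and 52.9 CPM with AKH overexpression. It fell with a small change (log2 fold change -0.36, SE 0.07, edgeR adjusted p = 0.045), with no overlap. Its call was lost in each of the 6 fits that left out a library (adjusted p 0.0541 to 0.210). It was also lost with library totals as the scaling (adjusted p = 0.14), with no expression filter (0.077), with limma on log2 RPKM (0.10 to 0.11) and with male germline level as a covariate (0.057).

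The flavoprotein SdhA was at 78.9, 73.2 and 75.6 CPM and then 56.6, 63.1 and 56.9 CPM, without overlap and with nearly the same log2 fold change of -0.37 (edgeR adjusted p = 0.056). The membrane anchor SdhD was at 25.6, 25.9 and 26.0 CPM and then 23.1, 22.9 and 22.2 CPM, again without overlap (log2 fold change -0.19, edgeR adjusted p = 0.16). The other anchor, SdhC, was at 42.1 ± 3.73 and 39.5 ± 1.38 CPM, with overlapping groups and an interval of -0.29 to 0.11. In the later annotation SdhB and SdhD share 10.6% and 13.9% of their exon bases with CG15237 and PTPMT1 on the opposite strand.

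Phosphoenolpyruvate carboxykinase takes oxaloacetate out of the cycle toward sugar, and the fly has a pair of genes for it. Pepck2 (FBgn0034356) was at 628, 852 and 841 CPM in the controls and at 201, 206 and 81.0 CPM with AKH overexpression. It fell 4.76-fold (log2 fold change -2.25, SE 0.37, edgeR adjusted p = 0.029), the largest log2 fold change of the 28 tested genes. AKH 3 was the lowest library, and without it the log2 fold change was -1.93 and the call held, while the call was lost without any 1 of the other 5 libraries (adjusted p up to 0.102).

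Pepck1 (FBgn0003067) was at 1074, 1715 and 2228 CPM in the controls and at 652, 815 and 647 CPM with AKH overexpression. The groups did not overlap, but the controls spread widely and the gene was not called (log2 fold change -1.25, 95% interval -1.91 to -0.59, edgeR adjusted p = 0.069). Without control 1, its lowest control, the adjusted p was 0.038 in edgeR's fit. In the other 5 fits that left out a library Pepck1 was not called (edgeR adjusted p up to 0.225). The log2 ratio of Pepck1 to Pepck2 was 0.77, 1.01 and 1.41 in the controls and 1.70, 1.98 and 3.00 with AKH overexpression, a difference of 1.16 with no overlap (exact two-sided permutation test, p = 0.10, adjusted p = 0.25). The sources used here do not state how reads shared by these related genes were counted. In the later annotation 100% of the exon bases of Pepck1 are shared with CG45087, on the same strand, a gene absent from the count table. The count of Pepck1 may therefore include reads of CG45087.

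Fructose-1,6-bisphosphatase acts later on the way to glucose. Its gene fbp (FBgn0032820) was at 274, 232 and 327 CPM in the controls and 137, 114 and 148 CPM with AKH overexpression. It fell 2.09-fold (log2 fold change -1.06, SE 0.16, edgeR adjusted p = 0.022), with no overlap. Its call held without control 2 or control 3 and was lost in the other 4 such fits (adjusted p up to 0.107). Within the 3 libraries of higher male germline level the log2 fold change was -0.86 for fbp, -2.03 for Pepck2 and -1.19 for Pepck1, and within the other 3 it was -1.02, -3.19 and -1.36.

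The entry enzymes were compared in the same way. The log2 ratio of PCB to Pdha was 3.41, 3.71 and 3.87 in the controls and 2.51, 2.48 and 2.86 with AKH overexpression, a difference of -1.04 with no overlap (exact two-sided permutation test, p = 0.10, adjusted p = 0.25). The log2 ratio of Ogdh to CG1544 was 0.18, 0.33 and 0.21 and then 0.69, 0.71 and 0.53, a difference of 0.40 with the same p-values in that exact test. The ratios of Pdk to Pdp, Pdha to Pdhb and SdhA to SdhB overlapped between groups, with differences of -0.20, -0.06 and -0.01.

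**Figure D4:**
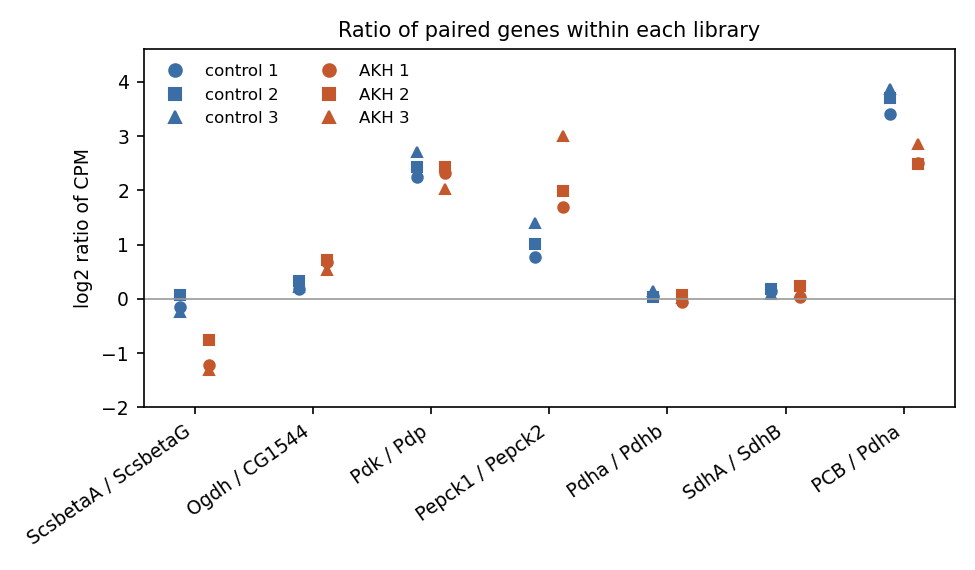
Log2 ratio of CPM of 7 of the 10 pairs of genes in each of the 6 libraries (blue, control; orange, AKH overexpression; symbol, replicate). The groups separate for ScsbetaA to ScsbetaG, Ogdh to CG1544, Pepck1 to Pepck2 and PCB to Pdha, and overlap for the other 3 pairs shown.

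Per length, the order of the levels of the 29 genes in the controls was led by an exit and a refilling enzyme. Mdh2, the last step of the cycle, was not among the 29 and stood at 449 ± 33.1 RPKM. Pepck1, whose count may include reads of CG45087, stood at 638 ± 178 RPKM and PCB at 370.1 ± 41.8 RPKM. Scsalpha1 followed at 292 ± 13.6 RPKM. Next came fbp at 234 ± 16.7 and Pepck2 at 233 ± 42.1 RPKM, which did not differ beyond their spread. The RPKM of PCB was above that of 97.9% of the tested genes. Pyruvate dehydrogenase subunits were lower, with Pdha at 66.7 ± 6.18 and Pdhb at 94.9 ± 9.69 RPKM.

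Subunits of a complex were not at equal levels. Idh3b and Idh3g stood at 22.2 ± 2.09 and 22.3 ± 1.12 RPKM in the controls, within their spread of each other and under Idh3a at 55.2 ± 0.663 RPKM. Succinate dehydrogenase subunits ranged from 28.6 ± 3.19 RPKM for SdhA to 63.9 ± 9.55 RPKM for SdhC.

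Low transcripts split the libraries another way. The paralogues mAcon2 (of mAcon1), CG32026 (of Idh3a) and CG6255 (of Scsalpha1) were tested but had no more than 73 counts in any library. CG6255 was at 0.387, 2.26 and 0.255 CPM in controls 1 to 3 and at 2.01, 1.57 and 0.209 CPM in AKH libraries 1 to 3. CG32026 was at 0.516, 1.30 and 0.255 CPM and then 1.28, 1.33 and 0.209 CPM, and mAcon2 at 0.290, 1.73 and 0.109 CPM and then 0.852, 1.03 and 0.0348 CPM. In each of these 3 genes control 2, AKH 1 and AKH 2 stood above the other libraries, the same libraries in which the male germline markers were high. Among all genes with a highest level under 4 CPM, 23.9% had these 3 libraries above the others. None of the 3 was called between control and AKH overexpression, and their intervals were wide, -2.16 to 2.92 for CG6255.

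**Figure D5:**
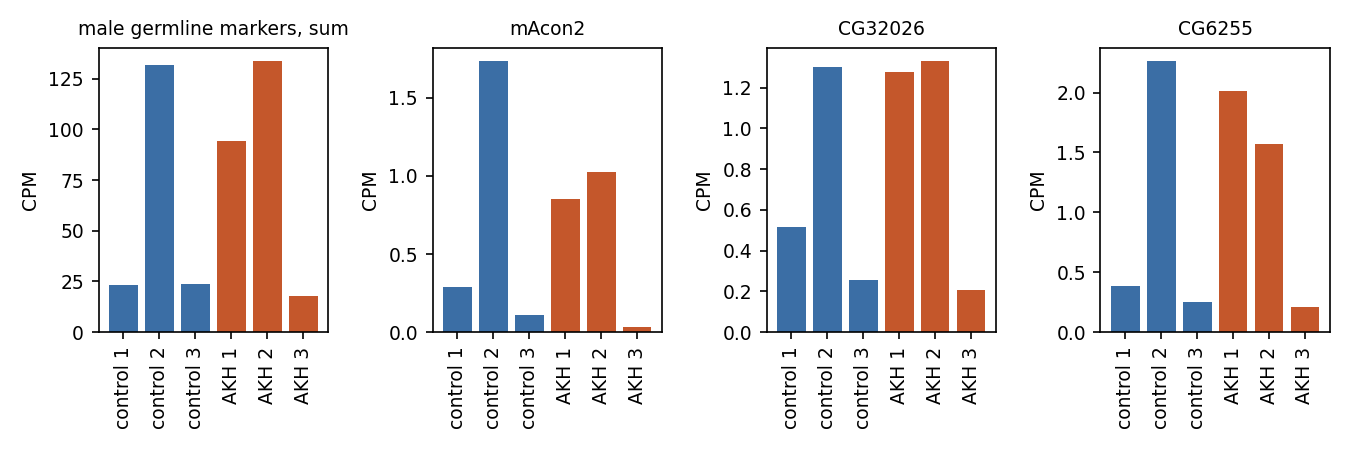
Summed CPM of 26 male germline markers and CPM of mAcon2, CG32026 and CG6255 in each library (blue, control; orange, AKH overexpression), each panel on its own axis from 0. Control 2, AKH 1 and AKH 2 have the taller bars in all 4 panels.

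The citrate carrier gene sea exports citrate from mitochondria for lipid synthesis. It had 2 to 7 counts in each library, 0.165 ± 0.0536 and 0.127 ± 0.0619 CPM, and was not tested. In the later annotation 85.2% of its exon bases lie within fabp, on the same strand, and fabp held 4296 to 6116 counts in each library. The deposited count of sea therefore may not give the level of its transcript.

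A further list named 44 genes of the cycle, its carriers, cofactors, aminotransferases and paralogues, of which 41 were in the table and 36 were tested. There 3 rose and 3 fell, 8.33% each way beside 1.87% and 1.91% of all tested genes. The median log2 fold change was 0.30 over the 36, -0.02 over the 21 that reached 4 CPM in some library and 0.41 over the other 15, and the 6 called were all among the 21. The genes that fell were Idh, the NADP-dependent isocitrate dehydrogenase, Men, a malic enzyme, and the glutamate dehydrogenase Gdh. Idh was at 848, 775 and 849 CPM in the controls and 282, 315 and 261 CPM with AKH overexpression (log2 fold change -1.53, SE 0.11, edgeR adjusted p = 0.0016). Men was at 567, 835 and 1050.0 CPM and then 78.0, 157 and 123 CPM, and without AKH 3 its call was lost (edgeR adjusted p = 0.052).

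The genes that rose were the aspartate aminotransferases Got1 and Got2, and Tpc1, a mitochondrial carrier of thiamine pyrophosphate, the cofactor of pyruvate and oxoglutarate dehydrogenase. Got1 was at 80.0, 73.5 and 96.8 CPM in the controls and 310.3, 364 and 331 CPM with AKH overexpression (log2 fold change 2.01, SE 0.13, edgeR adjusted p = 0.0014). Tpc1 was at 18.0, 23.5 and 17.8 CPM and then 36.9, 32.5 and 35.7 CPM (log2 fold change 0.83, SE 0.13, edgeR adjusted p = 0.024). The call of Tpc1 was lost without control 1, AKH 1 or AKH 3 (adjusted p up to 0.106) and with library totals as the scaling (adjusted p = 0.057).

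Genes that use or make malate and acetyl-CoA beside the cycle were singled out after their values were seen. Mdh1, the cytosolic malate dehydrogenase, was at 835, 783 and 1042 CPM in the controls and 1368, 1298 and 1365 CPM with AKH overexpression, and was not called (log2 fold change 0.60, edgeR adjusted p = 0.069). The mitochondrial form Mdh2, the last step of the cycle, was at 610 ± 104 and 596 ± 68.5 CPM. ATPCL, the citrate lyase that makes cytosolic acetyl-CoA, was at 564, 328 and 524 CPM and then 1012, 955 and 1366 CPM (log2 fold change 1.23, edgeR adjusted p = 0.053). AcCoAS, which makes acetyl-CoA from acetate, was at 1188, 1218 and 1762 CPM and then 574, 451 and 774 CPM (log2 fold change -1.21, edgeR adjusted p = 0.059). In Mdh1, ATPCL and AcCoAS the groups did not overlap. All 3 lay close to the threshold, and were called by DESeq2 (adjusted p = 0.00046, 1.3e-05 and 2.2e-05) and by edgeR with library totals as the scaling (adjusted p = 0.0042, 0.018 and 0.012). Limma-voom called none of them (adjusted p = 0.065, 0.0504 and 0.053). Among the 6 edgeR fits that left out a library, Mdh1 was called in 1 (adjusted p 0.022 to 0.318). ATPCL and AcCoAS were called in 0 of these fits (edgeR adjusted p up to 0.153 and 0.206).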

How the data were processed

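Trizol was used to extract RNA and a TruSeq RNA kit to make libraries, per the labels' protocols. The authors deposited raw gene counts and, in a second table, RPKM values, which equal the deposited counts divided by library total and gene length. Per the submitters' processing notes, the tools were DESeq 1.10.1, HTSeq 0.5.4p3, TopHat2 2.0.9 and Bowtie2 2.0.6, with build BDGP5; the sources used here do not state the annotation release or the use of strand. The later annotation at hand was used only for names and overlaps.

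The test of the deposited counts was edgeR 4.0.16 in R 4.3.3 (default expression filter, TMM, quasi-likelihood F test of group, no covariate) on all 6 libraries. SE and 95% intervals come from its F statistic, and log2 ratios used a prior count of 2. Alternatives were other scalings and filters, DESeq2 1.42.0, limma-voom (limma 3.58.1), robust estimation, a threshold of 0.10, leaving out each library, limma on log2 RPKM and a replicate block; the fits by male germline level were added after seeing the data. The steps were also tested on simulated data. Within a group, libraries differed with a chi-square of 39.3 to 94.3 for each degree of freedom, more than repeated sequencing of 1 library would give; separate preparations from 1 RNA pool were not tested for.

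The members, the other lists and the pairs were chosen with earlier results of these data known. All members are named; of the further list those called and paralogues of members are named by rule. A count of 0 allows up to 3 counts, 0.0907 to 0.109 CPM at these totals, which covers counting error only. Haemocyte, cuticle and Malpighian tubule markers were also summed, to 961 to 1393, 1244 to 2029 and 61.8 to 293 CPM, with overlapping groups, NimC1 among them having fallen. Figures were drawn with matplotlib 3.10.9.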

Additional observations from a re-analysis of the deposited data

How the results depend on the processing

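No member that fell changed sign under any alternative run, and no member was called higher. Fallen members numbered 10 with DESeq2 and 10 at a threshold of 0.10, beside 6, and 1 to 4 when 1 library was left out. Of the further list, genes called higher numbered 6 with DESeq2, 6 at a threshold of 0.10, 5 with library totals and 7 with limma on log2(RPKM + 1) or log2(RPKM + 0.1), beside 3, and 2 to 6 when 1 library was left out; called lower were 6 with DESeq2 and 2 to 3 when 1 library was left out. All genes called, 404, numbered 989 with DESeq2, 721 at a threshold of 0.10 and 144 to 479 when 1 library was left out. They numbered 524 with library totals, 561 with limma on log2(RPKM + 1) and 583 with limma on log2(RPKM + 0.1).

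Within the 3 libraries of low male germline level 0 members, 0 further genes higher, 0 lower and 2 genes in all were called; within the 3 of high level 4 members and 620 genes, and with that level as a covariate 6 members (CG1544 in place of SdhB) and 616 genes. Deviations of same-numbered libraries correlated at -0.37, 0.60 and 0.50 for numbers 1 to 3, and control 1 correlated best with AKH 3 (0.54). With 3 pairs these values do not settle whether the replicate numbers pair the samples. With the replicate block 6 members, 3 further genes higher and 4 lower, and 430 genes were called. The block ended the calls of SdhB (edgeR adjusted p = 0.081) and Tpc1 (adjusted p = 0.051). It added CG1544 (edgeR adjusted p = 0.024), ATPCL (adjusted p = 0.029) and AcCoAS (adjusted p = 0.014), and changed no other call of a member.

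Signs reversed only in uncalled genes and ratios; the cause was not tested. In the high germline libraries the log2 fold change was 0.12 for mAcon1, 0.11 for Idh3a, 0.11 for ScsbetaG, -0.30 for CG6255, 0.065 for SdhC, 0.19 for Pdha and 0.21 for Pdhb. In the low ones it was -0.028 for Idh3b, -0.031 for Idh3g, -0.89 for CG32026 and -0.62 for CG6255. With the covariate it was -0.033 for CG32026, 0.00736 for ScsbetaG, -0.0386 for CG6255 and 0.0077 for Pdhb. For mAcon2 it was 0.018 with log2(RPKM + 0.1) and 0.019 with the replicate block, and the log2 ratio of mAcon1 to mAcon2 differed by 0.10 with a prior count of 0.5. With 1 library left out, it ran from -0.66 to 1.64 for mAcon2, -0.15 to 0.036 for Idh3a, -0.021 to 0.073 for Idh3b, -0.033 to 0.071 for Idh3g, -0.075 to 0.073 for CG7430, -0.15 to 0.11 for ScsbetaG, -0.12 to 1.95 for CG6255 and -0.14 to 0.020 for Pdhb. The ratio differences then ran from -1.14 to 0.77 for mAcon1 to mAcon2, -1.15 to 0.19 for Idh3a to CG32026 and -0.0615 to 0.0344 for SdhA to SdhB. Genes under 3 CPM are limited by depth.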

Other observations

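Paralogues of cycle and carrier genes in the further list showed the library pattern of mAcon2, CG32026 and CG6255. Of its 19 genes with counts and a highest level under 4 CPM, 17 had control 2, AKH 1 and AKH 2 above the other 3 libraries, beside 23.9% of all genes of that level. They included the fumarase paralogues Fum2, Fum3 and Fum4, the succinate dehydrogenase paralogues SdhAL, SdhBL and CG6629, and CG7024, a paralogue of Pdha. SdhBL was at 1.92, 1.89 and 3.02 CPM in control 2, AKH 1 and AKH 2 and at 0.226, 0.365 and 0.243 CPM in control 1, control 3 and AKH 3. Fum3 was at 2.17, 1.46 and 1.69 CPM and then 0.129, 0.182 and 0.243 CPM in the same order. CG33791, a paralogue of Ogdh, had 0 counts in every library. These libraries were set apart by their male germline markers, not by a label, so the values describe them and carry no test.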
